A study of Mus musculus with 39 samples.

Results

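Clones yfp_7160c2 and yfp_7160c5 are sister mouse pancreatic tumour clones, read from their names as clones of one parent line. Tumours of yfp_7160c2 were classed as T cell high and those of yfp_7160c5 as T cell intermediate, and each clone gave 2 libraries, so 4 of the 39 libraries in the series make up the comparison. Members were chosen by name: tumours 1 and 2 of yfp_7160c2, and tumours 1 and 2 of yfp_7160c5. Both clones had been implanted under the skin of C57BL/6 mice without treatment, tumours were taken after 3 weeks, and RNA of sorted tumour cells was sequenced. The series as a whole asks how tumour cells of T cell high and T cell low tumours differ, so an intermediate sister of a high clone sets that question within one lineage. The labels give no alleles of the clones. Each clone is 1 cell line, and the labels do not say that its 2 tumours came from separate mice. The p-values of the 4-library comparison therefore measure only the spread between these libraries. Those of tumour 2 alone and tumour 1 alone measure the spread between libraries of other clones.

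Pancreatic tumour cells of this kind are ductal in origin and often take on gastric or intestinal features. Gastric-type cells make trefoil factors and gastrokines, while intestinal-type cells are governed by the homeobox factor Cdx2 and build a brush border and a mucus layer. Leukocytes, above all macrophages, fill such tumours, and their transcripts can enter a sorted tumour cell sample when doublets or debris pass the gate.

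Across the 4 libraries 30 genes were higher in yfp_7160c2 in both tumours by the size rule given below, among them Cdx2, Muc3, Tff3, Fcgbp, Gkn2 and Cdhr5, each known from gut epithelium and named after its values were seen. On a list of 23 gastrointestinal genes, 5 were past a log2 difference of 1 upward and 2 downward in tumour 2. Over all genes tested, 5.78% and 11.6% were. In tumour 1, 1 of the 23 was past it upward and 0 downward, beside 5.17% and 5.62% of all genes tested. The epithelial trafficking gene Rab25 and the kelch-domain gene Klhdc7a were lower in yfp_7160c2 in both tumours. Macrophage genes and MHC class II genes were far lower in yfp_7160c2 than in yfp_7160c5 in tumour 2, and similar or slightly higher in tumour 1. No gene passed edgeR's quasi-likelihood test at a Benjamini-Hochberg adjusted p under 0.05, in any comparison as designed, so these are differences between libraries and not called changes.

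The libraries held 54727164 counts for yfp_7160c2 tumour 1, 36161203 for yfp_7160c2 tumour 2, 31580159 for yfp_7160c5 tumour 1 and 33500428 for yfp_7160c5 tumour 2. Both tumour 1 libraries carried heart and liver transcripts. Transcripts of Myh6, Myh7, Myl2 and Mb, made in heart muscle, summed to 2553 CPM (counts of a gene scaled to one library size) in yfp_7160c2 and 2647 CPM in yfp_7160c5 in tumour 1, and to 0 and 0.0597 CPM in yfp_7160c2 and yfp_7160c5 in tumour 2. Liver genes, led by Alb, summed to 8877 CPM in yfp_7160c2 and 9149 CPM in yfp_7160c5 in tumour 1, against 0.221 CPM in yfp_7160c2 and 0.358 CPM in yfp_7160c5 in tumour 2. A library was called heart-free below 10 CPM of heart genes, which put tumour 2 with 19 libraries of 16 clones and tumour 1 with 17 libraries of 16 clones. The heart and liver sums are CPM without TMM factors, and all levels from here on are CPM scaled with TMM factors. Keratin and adhesion genes of tumour epithelium, such as Krt8, Krt18, Krt19 and Epcam, were abundant in all 4. Their summed level was 7553 CPM in yfp_7160c2 and 7430 CPM in yfp_7160c5 in tumour 1, and 9573 CPM in yfp_7160c2 and 8371 CPM in yfp_7160c5 in tumour 2.

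The same-numbered libraries of the clones resembled each other more than the libraries of 1 clone did. Over 11635 genes, the log2 CPM of the tumour 1 libraries correlated with a Pearson r of 0.995 and that of the tumour 2 libraries with 0.945. Within a clone, tumour 1 and tumour 2 correlated at 0.792 for yfp_7160c2 and 0.815 for yfp_7160c5. Each of the 4 libraries had the sister's same-numbered library as its nearest among the 36 with a class. These correlations are across genes, which are not independent replicates. Between the tumour 1 libraries the chi-square of the counts over its degrees of freedom was 9.89, and between the tumour 2 libraries 98.9. Within a clone it was 276 for yfp_7160c2 and 202 for yfp_7160c5. This measure is set against counting error only, and the 9.89 does not show separate tumours. The 4 libraries were kept as separate samples because the labels list them so.

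With the 2 libraries of each clone as replicates, 17359 genes were tested and edgeR called 0 in either direction (0% higher, 0% lower), with 21 higher and 44 lower at an unadjusted p under 0.05. DESeq2 and limma-voom also called 0. In tumour 2 alone, where the spread came from clones with several heart-free libraries, edgeR called 0 of 18614 genes (327 higher and 425 lower unadjusted). DESeq2 called 19 higher (0.102%) and 39 lower (0.21%) there. In tumour 1 alone the fit had 1 residual degree of freedom and called 0 of 19967 genes (65 higher and 110 lower unadjusted), and DESeq2 called 0. In the tumour 2 and tumour 1 fits, yfp_7160c2 and yfp_7160c5 each had a single library. The spread came from yfp_2699c4 and yfp_2838c3 in the heart-free fit and from yfp_2699c4 alone in the heart-bearing fit. The single libraries were assumed to vary like these.

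Genes were therefore described by size. Among 8338 genes with at least 20 CPM in the higher tumour 2 library, 122 (1.46%) were higher in yfp_7160c2 by a log2 difference of 1 or more in tumour 2, and 248 (2.97%) were lower by as much. This fold rule was chosen after edgeR had called no gene. In tumour 1, which the choice did not use, 112 of the 122 had the same sign (91.8%), beside 52.6% of all 8338 that were positive there. Of the 248 lower genes, 105 had the same sign (42.3%), beside 47.4% of all 8338 that were negative. The median tumour 1 difference was 0.24 for the 122, 0.05 for the 248 and 0.01 for all 8338 genes. A log2 difference of at least 0.5 in tumour 1 as well left 30 genes higher in yfp_7160c2 (0.36% of 8338; 24.6% of the 122) and 11 lower (0.132% of 8338; 4.44% of the 248). For comparison, 55 (0.66%) and 23 (0.276%) of all 8338 passed that tumour 1 difference. Of the 122, 0 went past 0.5 the other way in tumour 1, and of the 248, 5 did.

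**Figure D1:**
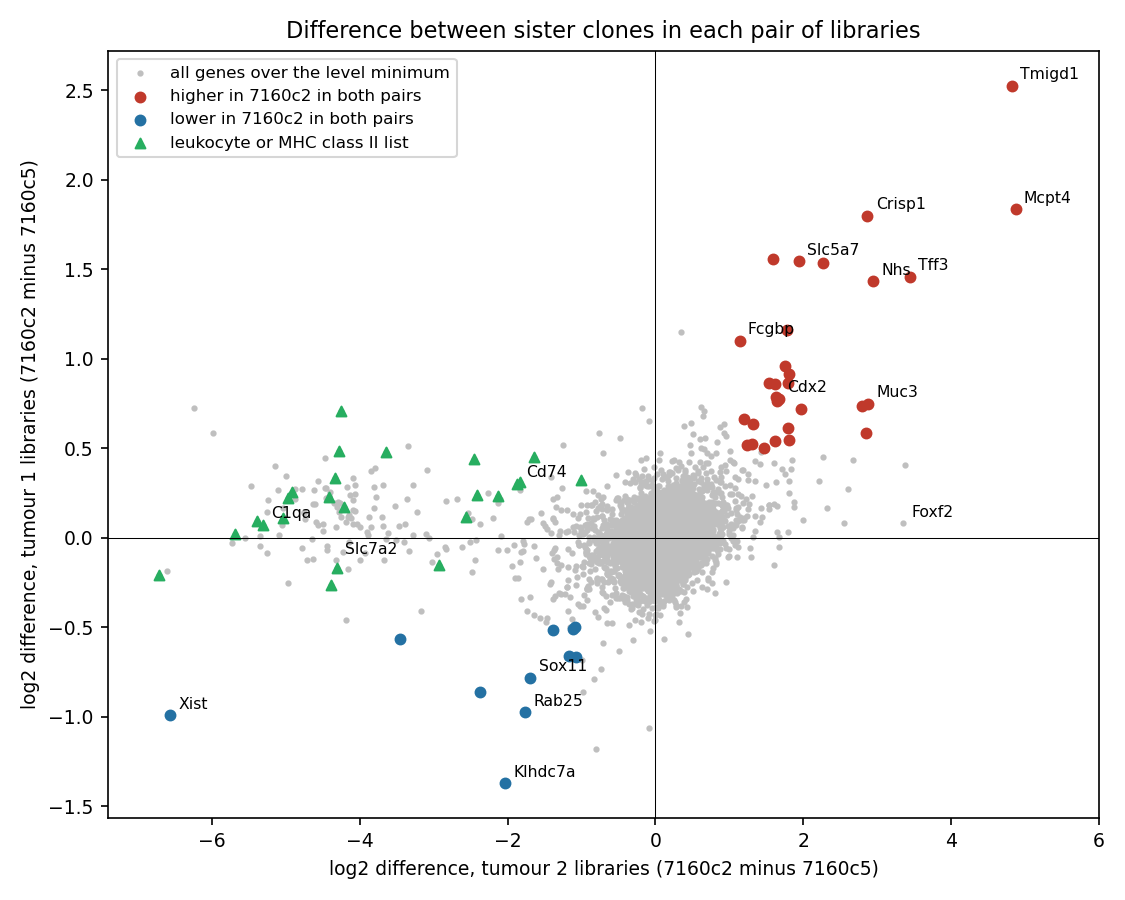
Log2 difference of yfp_7160c2 minus yfp_7160c5 in the tumour 2 libraries (x axis) against the tumour 1 libraries (y axis), 1 point a gene, for the 8338 genes with at least 20 CPM in the higher tumour 2 library. The 30 genes higher in both (red) lie in the upper right and the 11 lower in both (blue) in the lower left. Green triangles are the 24 of 62 leukocyte and class II list genes that met this minimum, and the rest are not drawn. They run along the left at tumour 1 differences of -0.26 to 0.71. A gene high only in yfp_7160c5 tumour 2 can meet the minimum, so the minimum itself favours that side for these lists.

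All 30 higher genes were protein coding. The transcription factor Cdx2, which directs intestinal identity (GRCm38 chr5:147300805-147307270), stood at 45.3 CPM in yfp_7160c2 and 14.3 CPM in yfp_7160c5 in tumour 2, and at 11.7 CPM in yfp_7160c2 and 6.80 CPM in yfp_7160c5 in tumour 1. Its log2 difference was 1.67 ± 1.25 (SE) in tumour 2 and 0.78 ± 0.93 in tumour 1. Both tumours had yfp_7160c2 above yfp_7160c5, and in tumour 1 the error exceeded the difference. Other heart-free libraries ran over the same range, from 0.152 to 58.4 CPM in 7 libraries of T cell high clones and from 0.692 to 28.1 CPM in 9 libraries of T cell low clones.

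Muc3, a membrane mucin of intestinal absorptive cells (chr5:137134922-137149322), was at 62.4 CPM in yfp_7160c2 against 8.48 CPM in yfp_7160c5 in tumour 2, and at 11.8 CPM in yfp_7160c2 against 7.02 CPM in yfp_7160c5 in tumour 1. Fcgbp, an IgG Fc binding protein of goblet cell mucus (chr7:28071236-28120862), was at 164 CPM in yfp_7160c2 and 74.6 CPM in yfp_7160c5 in tumour 2, and at 136 CPM in yfp_7160c2 and 63.3 CPM in yfp_7160c5 in tumour 1. It had the smallest p of any gene at 20 CPM or more that was higher in the 4-library comparison, with a log2 difference of 1.08 ± 0.19 and an unadjusted p = 0.00657, and an edgeR adjusted p of 1. Tff3, the intestinal trefoil factor (chr17:31125306-31129646), was at 30.6 CPM in yfp_7160c2 against 2.81 CPM in yfp_7160c5 in tumour 2, and at 31.0 CPM in yfp_7160c2 against 11.3 CPM in yfp_7160c5 in tumour 1. For Muc3 and Fcgbp, the sisters ranked first and second of the 19 heart-free libraries and of the 17 heart-bearing libraries. The other 17 heart-free libraries had at most 5.01 CPM of Muc3 and 45.7 CPM of Fcgbp, so these genes were high in both clones of the line and higher in yfp_7160c2.

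Gkn2, a gastrokine of the gastric surface epithelium, was at 174 CPM in yfp_7160c2 and 55.5 CPM in yfp_7160c5 in tumour 2, and at 178 CPM in yfp_7160c2 and 105 CPM in yfp_7160c5 in tumour 1. Its close relative Gkn1 was at 150 CPM in yfp_7160c2 against 74.5 CPM in yfp_7160c5 in tumour 2, and at 117 CPM in yfp_7160c2 against 86.8 CPM in yfp_7160c5 in tumour 1. The tumour 2 log2 differences were 1.64 ± 1.64 for Gkn2 and 1.01 ± 1.64 for Gkn1, so the errors were as large or larger. Neither gastrokine exceeded 52.3 CPM in the other heart-free libraries. The tumour 1 rule left Gkn1 out of the genes higher in both tumours, as its log2 difference there was 0.43. Slc26a3, the intestinal chloride-bicarbonate exchanger, was at 35.5 CPM in yfp_7160c2 and 19.9 CPM in yfp_7160c5 in tumour 2. In tumour 1 it was at 30.7 CPM in yfp_7160c2 and 21.1 CPM in yfp_7160c5. The other heart-free libraries reached 1.54 CPM of Slc26a3. The tumour 2 rule left Slc26a3 out of the genes higher in both tumours, as its log2 difference there was 0.84.

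Cdhr5, a protocadherin that links microvilli (chr7:141269083-141276786), was at 88.0 CPM in yfp_7160c2 against 22.4 CPM in yfp_7160c5 in tumour 2, and at 31.2 CPM in yfp_7160c2 against 18.98 CPM in yfp_7160c5 in tumour 1. Tmigd1, an adhesion molecule of intestinal and renal epithelium (chr11:76902159-76916587), was at 21.1 CPM in yfp_7160c2 against 0.743 CPM in yfp_7160c5 in tumour 2, and at 1.76 CPM in yfp_7160c2 against 0.304 CPM in yfp_7160c5 in tumour 1. DESeq2 called Tmigd1 in tumour 2. In that tumour yfp_7160c2 was the highest and yfp_7160c5 the lowest of the 19 heart-free libraries. Lypd8, which keeps flagellated bacteria off the colonic epithelium, was at 25.0 CPM in yfp_7160c2 and 3.61 CPM in yfp_7160c5 in tumour 2, and at 15.6 CPM in yfp_7160c2 and 9.35 CPM in yfp_7160c5 in tumour 1. B4galnt2, a glycosyltransferase of the gut epithelium, was at 112 CPM in yfp_7160c2 against 32.0 CPM in yfp_7160c5 in tumour 2, and at 29.1 CPM in yfp_7160c2 against 15.9 CPM in yfp_7160c5 in tumour 1. The tetraspanin-like Tm4sf20 was at 164 CPM in yfp_7160c2 and 56.4 CPM in yfp_7160c5 in tumour 2, and at 57.2 CPM in yfp_7160c2 and 31.4 CPM in yfp_7160c5 in tumour 1.

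Promoters of these genes were searched for TTTATG or its reverse complement CATAAA, the core of the CDX binding consensus, on both strands, in 300 bases around each RefSeq start. The promoters of Cdx2, Cdhr5 and Tmigd1 are shown, the first as that of the factor and the others as 2 of the 4 genes with a match, chosen for the match; capitals mark the motif.
Cdx2 (GRCm38.p6 chr5:147307200-147307499, - strand): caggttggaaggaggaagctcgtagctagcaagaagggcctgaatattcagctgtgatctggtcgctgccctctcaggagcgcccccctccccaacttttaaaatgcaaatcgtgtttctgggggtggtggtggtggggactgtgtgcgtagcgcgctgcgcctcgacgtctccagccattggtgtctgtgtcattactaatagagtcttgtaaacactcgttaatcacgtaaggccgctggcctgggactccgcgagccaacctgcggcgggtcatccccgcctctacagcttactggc
Cdhr5 (GRCm38.p6 chr7:141276737-141277036, - strand): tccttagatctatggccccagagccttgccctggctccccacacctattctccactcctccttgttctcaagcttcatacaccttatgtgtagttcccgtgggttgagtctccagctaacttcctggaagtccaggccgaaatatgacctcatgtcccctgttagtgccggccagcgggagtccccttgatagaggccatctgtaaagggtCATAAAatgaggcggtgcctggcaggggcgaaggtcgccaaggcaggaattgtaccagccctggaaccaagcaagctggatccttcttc
Tmigd1, upstream start (GRCm38.p6 chr11:76890870-76891169, + strand): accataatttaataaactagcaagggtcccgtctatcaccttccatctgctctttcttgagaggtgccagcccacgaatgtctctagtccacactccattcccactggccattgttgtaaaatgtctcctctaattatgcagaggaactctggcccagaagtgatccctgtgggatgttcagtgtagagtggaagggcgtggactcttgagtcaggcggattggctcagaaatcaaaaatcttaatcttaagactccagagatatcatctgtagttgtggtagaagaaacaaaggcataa
Tmigd1, downstream start (GRCm38.p6 chr11:76901909-76902208, + strand): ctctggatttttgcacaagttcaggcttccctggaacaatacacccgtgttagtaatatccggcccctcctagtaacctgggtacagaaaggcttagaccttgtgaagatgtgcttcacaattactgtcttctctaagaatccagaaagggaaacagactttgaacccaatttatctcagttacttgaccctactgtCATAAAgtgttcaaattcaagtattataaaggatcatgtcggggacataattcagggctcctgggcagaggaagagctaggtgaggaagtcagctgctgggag
The windows of Cdx2 and of the upstream Tmigd1 start have no match, and those of Cdhr5 and of the downstream Tmigd1 start have 1 each. Of 30 higher genes, 24 had a RefSeq promoter, giving 27 windows, of which 4 held the motif (Cdhr5, Nepn, Pcsk5 and Tmigd1). Of 32851 promoters of this length in the same table, 3893 held it (11.9%). None of the 4 promoters of lower genes did. A match is a run of letters and not a measured site.

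Mcpt4 and Mcpt2 encode mast cell proteases. Mcpt4 was at 56.7 CPM in yfp_7160c2 against 1.93 CPM in yfp_7160c5 in tumour 2, and at 8.99 CPM in yfp_7160c2 against 2.52 CPM in yfp_7160c5 in tumour 1. Its log2 difference of 4.88 ± 0.94 in tumour 2 was called by DESeq2. Mcpt2 was at 82.1 CPM in yfp_7160c2 against 26.6 CPM in yfp_7160c5 in tumour 2, and at 52.3 CPM in yfp_7160c2 against 30.3 CPM in yfp_7160c5 in tumour 1. Other heart-free libraries had 2.95 to 355 CPM of Mcpt2, so both sisters lay inside the range. Slc5a7, the choline transporter, was at 89.3 CPM in yfp_7160c2 against 23.3 CPM in yfp_7160c5 in tumour 2, and at 10.5 CPM in yfp_7160c2 against 3.58 CPM in yfp_7160c5 in tumour 1. Crisp1, a secretory protein best known from the epididymis, was at 82.1 CPM in yfp_7160c2 and 11.2 CPM in yfp_7160c5 in tumour 2, and at 25.8 CPM in yfp_7160c2 and 7.41 CPM in yfp_7160c5 in tumour 1.

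Nhs, a regulator of actin at the cell edge, was at 39.3 CPM in yfp_7160c2 against 5.12 CPM in yfp_7160c5 in tumour 2, and at 8.85 CPM in yfp_7160c2 against 3.28 CPM in yfp_7160c5 in tumour 1. Evc2, a ciliary protein of Hedgehog signalling, was at 46.7 CPM in yfp_7160c2 against 13.8 CPM in yfp_7160c5 in tumour 2, and at 22.99 CPM in yfp_7160c2 against 11.8 CPM in yfp_7160c5 in tumour 1. Its partner Evc, which the tumour 1 rule left out, was at 29.6 CPM in yfp_7160c2 against 4.65 CPM in yfp_7160c5 in tumour 2, and at 11.2 CPM in yfp_7160c2 against 8.32 CPM in yfp_7160c5 in tumour 1. The remaining higher members were Pcsk5, Nepn, 2210407C18Rik, Khdrbs3, Ramp3, Megf10, Asz1, 2310057J18Rik, Il5ra, Calml4, Mdga1, Neto2, Ugt1a7c and Ncald, with tumour 2 differences of 1.20 to 2.86 and tumour 1 differences of 0.50 to 1.56. For 18 of the 30, yfp_7160c2 was the highest of the 19 heart-free libraries, against 25.4% of the 122 and 4.44% of all 8338 genes, though the rule itself favours a high level in that library. In tumour 1, yfp_7160c2 was the highest of the 17 heart-bearing libraries for 14 of the 30. The rule used the tumour 1 difference too, so it also favours a high level there. The share over all genes was not counted for tumour 1, so the 14 have no background beside them.

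**Figure D2:**
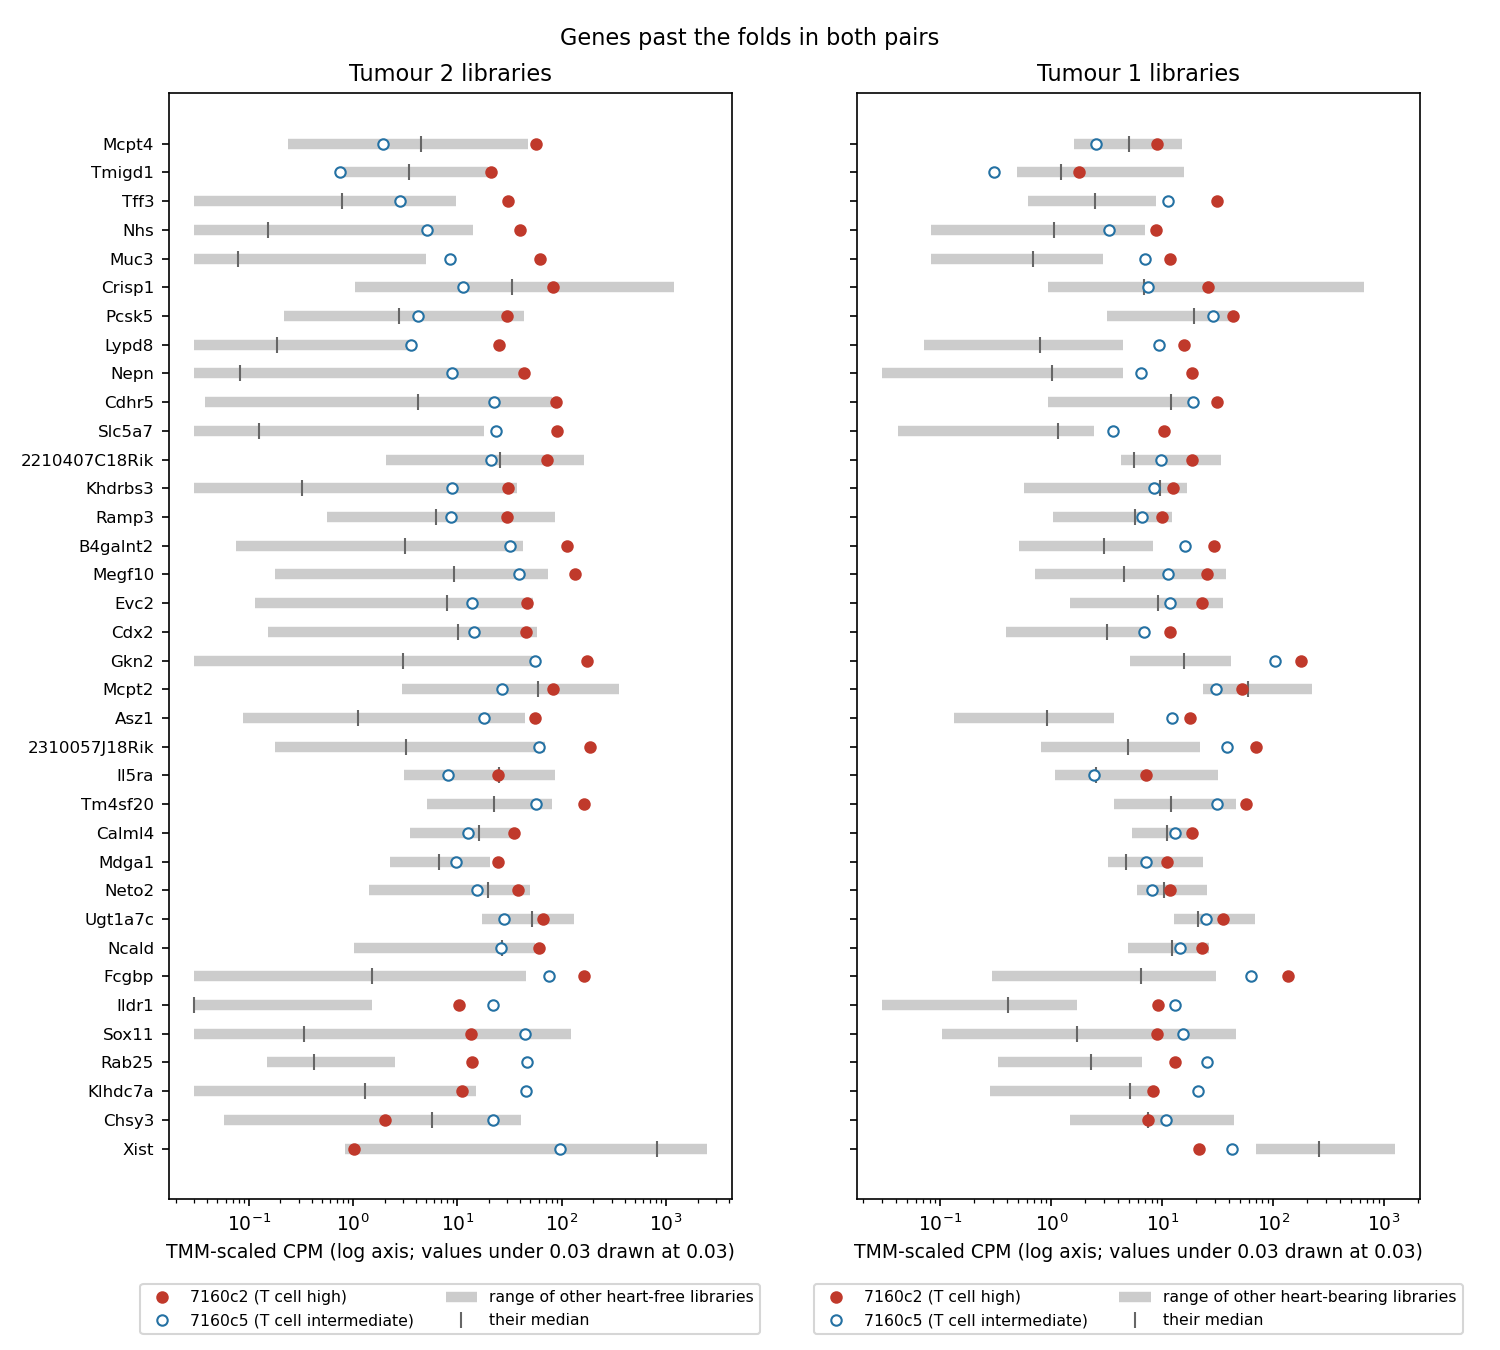
TMM-scaled CPM (x axis, log scale) of the genes past the difference in both tumours, the Gm symbols left out, in tumour 2 (left) and tumour 1 (right). Red points are yfp_7160c2, open blue points yfp_7160c5, grey bars the range of the other libraries of that kind and ticks their median; red lies right of blue for the 30 genes from Mcpt4 down to Fcgbp and left of it below.

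Of the 11 lower genes, 6 were protein coding (Gm1045 included), and the others were Xist and 4 Gm symbols of small or repeated RNA. Rab25, an epithelial GTPase of apical recycling (chr3:88542029-88548300), was at 13.8 CPM in yfp_7160c2 against 46.8 CPM in yfp_7160c5 in tumour 2, and at 12.9 CPM in yfp_7160c2 against 25.5 CPM in yfp_7160c5 in tumour 1. Its log2 difference over the 4 libraries was -1.48 ± 0.39, with an unadjusted p = 0.0227 and an edgeR adjusted p of 1. The other 17 heart-free libraries had at most 2.54 CPM, so Rab25 too was high in the line. Klhdc7a (chr4:139960220-139968026) was at 11.1 CPM in yfp_7160c2 against 45.6 CPM in yfp_7160c5 in tumour 2, and at 8.18 CPM in yfp_7160c2 against 21.1 CPM in yfp_7160c5 in tumour 1. Sox11, a developmental transcription factor, was at 13.6 CPM in yfp_7160c2 and 43.9 CPM in yfp_7160c5 in tumour 2, and at 8.92 CPM in yfp_7160c2 and 15.3 CPM in yfp_7160c5 in tumour 1.

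Ildr1, a component of tricellular junctions, was at 10.4 CPM in yfp_7160c2 against 21.998 CPM in yfp_7160c5 in tumour 2, and at 9.19 CPM in yfp_7160c2 against 12.999 CPM in yfp_7160c5 in tumour 1. Chsy3, a chondroitin synthase, was at 2.01 CPM in yfp_7160c2 and 22.025 CPM in yfp_7160c5 in tumour 2, and at 7.37 CPM in yfp_7160c2 and 10.9 CPM in yfp_7160c5 in tumour 1, and was called by DESeq2. The epithelial transcription factor Grhl2 fell short of the level minimum, but was at 0.909 CPM in yfp_7160c2 against 12.5 CPM in yfp_7160c5 in tumour 2, and at 1.83 CPM in yfp_7160c2 against 4.19 CPM in yfp_7160c5 in tumour 1. Grhl2 is named after its values were seen. The Gm symbols are short or repeat-like RNAs whose reads can be split among copies, and Gm26924, which resembles ribosomal RNA, was at 2272 CPM in yfp_7160c2 and 6731 CPM in yfp_7160c5 in tumour 2, and at 7185 CPM in yfp_7160c2 and 9816 CPM in yfp_7160c5 in tumour 1. The part of ribosomal carry-over in the lower Gm symbols was not tested.

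Xist, the RNA that silences an X chromosome in female cells (chrX:103460366-103483254), was at 1.02 CPM in yfp_7160c2 against 97.0 CPM in yfp_7160c5 in tumour 2, and at 21.5 CPM in yfp_7160c2 against 42.7 CPM in yfp_7160c5 in tumour 1. It was among the genes with the smallest p in tumour 2, with a log2 difference of -6.57 ± 0.69 and an edgeR adjusted p of 0.380, and DESeq2 called it. The Y-linked Ddx3y was at 38.8 CPM in yfp_7160c2 and 38.0 CPM in yfp_7160c5 in tumour 2, and at 50.01 CPM in yfp_7160c2 and 59.1 CPM in yfp_7160c5 in tumour 1. Kdm5d was at 25.2 CPM in yfp_7160c2 and 29.9 CPM in yfp_7160c5 in tumour 2. Ddx3y was at most 15.5 CPM in the other heart-free libraries, whose median was 0, so both clones carried Y transcripts. Xist had a median of 815 CPM in those libraries, above both sisters in tumour 2, and in tumour 1 both lay under the lowest of the other heart-bearing libraries, 70.2 CPM.

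Within the list of 28 epithelial adhesion genes, 9 had a positive difference in tumour 2 and 8 in tumour 1. The list medians were -0.10 and -0.05 against 0.06 and 0.004 for all genes tested. Of the 28, 0 were past a log2 difference of 1 upward and 3 downward in tumour 2, and 0 and 1 in tumour 1. The downward 3 lie near the share of all genes given below. For the sign counts here, 52.6% of the 8338 genes with at least 20 CPM were positive in tumour 1. The adhesion molecule Cdh1 was at 981 CPM in yfp_7160c2 and 1111 CPM in yfp_7160c5 in tumour 2, and at 807 CPM in yfp_7160c2 and 827 CPM in yfp_7160c5 in tumour 1. Of the 23 genes of gastrointestinal differentiation and mucins, 15 were positive in tumour 2 and 19 in tumour 1, and 5 were past a log2 difference of 1 upward and 2 downward in tumour 2 (5.78% and 11.6% of all genes tested were). In tumour 1, 1 was past it upward and 0 downward (5.17% and 5.62% of all genes tested were). The list medians were 0.30 in tumour 2 and 0.18 in tumour 1. The upward 5 were Gkn2, Gkn1, Anxa10, Cdx2 and Tff3, and the downward 2 were Muc6 and Muc20. Markers shared by ductal and gastric cells, such as Ctse, Agr2 and Muc1, differed by less than 0.5. In the list of pancreatic and foregut transcription factors, 11 of 15 were positive in tumour 2 and 6 in tumour 1, and 0 were past a log2 difference of 1 upward and 3 downward in tumour 2, namely Foxa3, Nr5a2 and Nkx6-1, with differences of -1.02, -1.47 and -1.30. Hnf4a, Pdx1, Foxa2 and Gata6 differed by 0.31 to 0.61 in tumour 2 and by -0.10 to 0.09 in tumour 1.

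A different group of genes stood apart in tumour 2 and little in tumour 1, where both libraries carried heart and liver transcripts. Foxf2, a forkhead factor known from gut mesenchyme, was at 51.1 CPM in yfp_7160c2 against 5.01 CPM in yfp_7160c5, and in tumour 1 at 12.6 CPM in yfp_7160c2 against 11.9 CPM in yfp_7160c5. Its log2 difference was 3.35 ± 0.36 in tumour 2, with an edgeR adjusted p of 0.380, and 0.08 ± 0.59 in tumour 1. The others with the smallest p on the higher side were Matn2, Evc, Penk and S100a4, with tumour 2 differences of 1.53 to 3.38 and tumour 1 differences of 0.17 to 0.43. S100a4, a calcium-binding protein of motile cells, was at 51.5 CPM in yfp_7160c2 and 10.3 CPM in yfp_7160c5 in tumour 2, and at 98.7 CPM in yfp_7160c2 and 88.0 CPM in yfp_7160c5 in tumour 1. The other heart-free libraries had medians of 46.1 CPM of Foxf2 and 50.8 CPM of S100a4. The other heart-bearing libraries had medians of 23.3 and 160 CPM. All 10 genes named by that rule, 5 in each direction, were called by DESeq2 and missed edgeR's threshold. They were picked by the smallest edgeR p in the same libraries, so the DESeq2 calls are not separate support.

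On the lower side Slc7a2, a cationic amino acid transporter, was at 2.53 CPM in yfp_7160c2 against 50.6 CPM in yfp_7160c5 in tumour 2, and at 136 CPM in yfp_7160c2 against 148 CPM in yfp_7160c5 in tumour 1. Fabp5, a fatty acid carrier, was at 3.72 CPM in yfp_7160c2 against 31.1 CPM in yfp_7160c5 in tumour 2, and at 74.5 CPM in yfp_7160c2 against 74.6 CPM in yfp_7160c5 in tumour 1. The other heart-free libraries had medians of 59.3 CPM of Slc7a2 and 25.0 CPM of Fabp5, and the heart-bearing ones 199 and 95.5 CPM. The part of RNA from other cells in the tumour 1 values was not tested. Slco2a1, a prostaglandin transporter, and Tgfbr1, the type I TGF-beta receptor, were lower by log2 differences of -1.82 ± 0.28 and -1.18 ± 0.19 in tumour 2, and by -0.08 and -0.24 in tumour 1. Among the 39 lower genes called by DESeq2 in tumour 2, 23 had the same sign in tumour 1, and among the 19 higher genes 17 did. Of the 8338 genes with at least 20 CPM, 47.4% were negative and 52.6% positive in tumour 1. The genes called by DESeq2 were not held to that minimum. Of the 39 lower genes, 0 were on the leukocyte or MHC class II lists, which are short. The 39 did include Fcgr3, Cybb and Cx3cr1, genes of myeloid cells that the lists leave out. In tumour 2 these were at 6.86, 6.28 and 1.07 CPM in yfp_7160c2, against 110, 114 and 81.6 CPM in yfp_7160c5. Their tumour 1 differences were 0.06, 0.09 and 0.73.

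Macrophage genes were much lower in yfp_7160c2 than in yfp_7160c5 in tumour 2. Lyz2, the lysozyme of myeloid cells, was at 57.4 CPM in yfp_7160c2 against 1736 CPM in yfp_7160c5 in tumour 2, and at 1028 CPM in yfp_7160c2 against 861 CPM in yfp_7160c5 in tumour 1. The complement genes C1qa, C1qb and C1qc and the receptor Csf1r had tumour 2 differences of -5.39 to -4.97 and tumour 1 differences of 0.07 to 0.22. All 9 macrophage markers tested were lower in yfp_7160c2 tumour 2, and 6 were higher in yfp_7160c2 tumour 1. Their sum was 111 CPM in yfp_7160c2 and 3371 CPM in yfp_7160c5 in tumour 2, and 1887 CPM in yfp_7160c2 and 1692 CPM in yfp_7160c5 in tumour 1. In the other heart-free libraries it ran from 91.7 to 2926 CPM with a median of 320 CPM, so yfp_7160c2 lay near the bottom of the range and yfp_7160c5 above it. The pan-leukocyte list, with Ptprc and Laptm5, summed to 29.0 CPM in yfp_7160c2 and 442 CPM in yfp_7160c5 in tumour 2, and to 426 CPM in yfp_7160c2 and 367 CPM in yfp_7160c5 in tumour 1. Fewer macrophages, less RNA per macrophage and less carry-over of doublets or debris into the sort cannot be told apart in a sum like this.

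The MHC class II list, which macrophages, dendritic cells and some tumour cells express, had the same pattern. Cd74, the class II invariant chain, was at 250 CPM in yfp_7160c2 against 909 CPM in yfp_7160c5 in tumour 2, and at 581 CPM in yfp_7160c2 against 471 CPM in yfp_7160c5 in tumour 1. All 7 class II genes were lower in yfp_7160c2 in tumour 2 and all 7 higher in tumour 1, with list medians of -1.87 and 0.31. The part of leukocyte RNA in these values was not tested. Of 9 T cell genes tested, 3 were past a log2 difference of 1 upward in tumour 2 and 4 downward. Of 6 neutrophil genes tested, 3 were past it upward and 2 downward. Over all genes tested, 5.78% were past it upward and 11.6% downward. On the T cell list, 2 genes were at 0 in yfp_7160c2 and 3 in yfp_7160c5 in tumour 2. Dendritic markers summed to 7.98 CPM in yfp_7160c2 and 91.3 CPM in yfp_7160c5 in tumour 2, and to 76.4 CPM in yfp_7160c2 and 56.8 CPM in yfp_7160c5 in tumour 1. T cell markers were low: 1.82 CPM in yfp_7160c2 and 13.2 CPM in yfp_7160c5 in tumour 2, of which Cd4, shared with myeloid cells, made 0.165 CPM in yfp_7160c2 and 11.6 CPM in yfp_7160c5, and Cd3e made 0.0826 CPM in yfp_7160c2 and 0 in yfp_7160c5. These were libraries of sorted tumour cells, so the T cell class of the tumour could not be read from them.

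**Figure D3:**
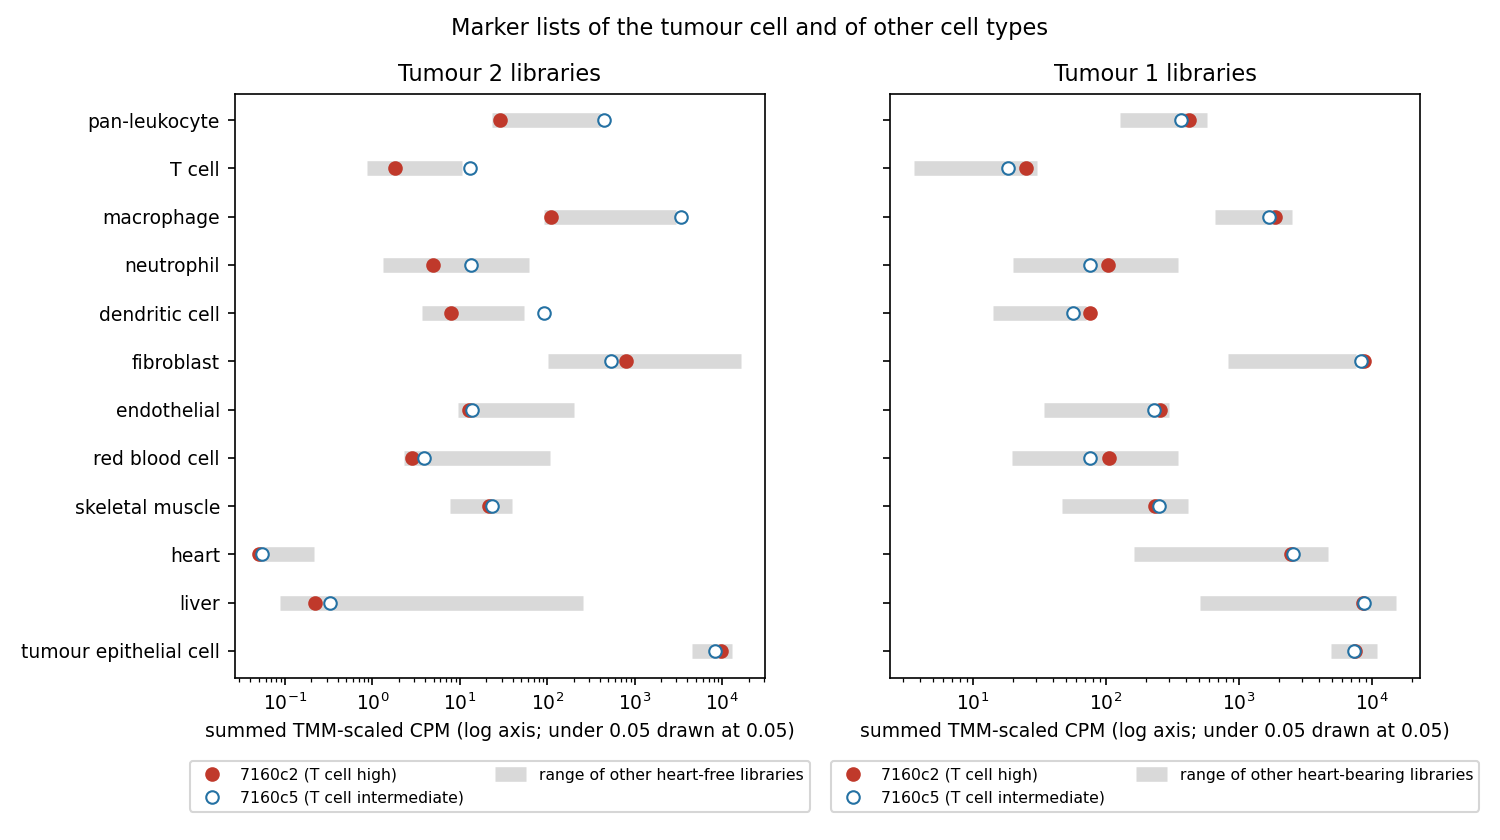
Summed TMM-scaled CPM (x axis, log scale) of marker lists in tumour 2 (left) and tumour 1 (right), 1 row a cell type. Red points are yfp_7160c2, open blue points yfp_7160c5 and grey bars the range of the other libraries of that kind; the macrophage sums part in tumour 2, at 111 and 3371 CPM, and nearly coincide in tumour 1, at 1887 and 1692 CPM.

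Fibroblast markers, led by collagens, summed to 794 CPM in yfp_7160c2 and 536 CPM in yfp_7160c5 in tumour 2, and to 8701 CPM in yfp_7160c2 and 8333 CPM in yfp_7160c5 in tumour 1. Myeloid attractants had a median of -1.39 in tumour 2 and 0.08 in tumour 1, with 10 of 18 past a log2 difference of 1 downward and 1 upward in tumour 2, where 11.6% and 5.78% of all genes tested were. Il1b, an inflammatory cytokine made by macrophages, was at 5.92 CPM in yfp_7160c2 against 50.6 CPM in yfp_7160c5 in tumour 2, and at 227 CPM in yfp_7160c2 against 175 CPM in yfp_7160c5 in tumour 1. Il33, an alarmin of epithelium, was higher in yfp_7160c2 in both, at 63.6 CPM in yfp_7160c2 against 17.4 CPM in yfp_7160c5 in tumour 2, and 62.4 CPM in yfp_7160c2 against 55.5 CPM in yfp_7160c5 in tumour 1. The neutrophil attractant Cxcl5 stood in tumour 2 at 78.7 CPM in yfp_7160c2 and 61.6 CPM in yfp_7160c5.

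Of 13 lymphocyte attractants tested, 7 were positive in tumour 2, with 2 past a log2 difference of 1 upward and 4 downward. Over all genes tested, 5.78% were past it upward and 11.6% downward. The lymphocyte attractants summed to 222 CPM in yfp_7160c2 and 247 CPM in yfp_7160c5. Among them Cxcl9 and Cxcl10, which interferon induces, were at 32.6 and 11.2 CPM in yfp_7160c2, against 25.0 and 9.17 CPM in yfp_7160c5, in tumour 2. In tumour 1 they were at 12.4 and 5.84 CPM in yfp_7160c2, against 8.02 and 4.95 CPM in yfp_7160c5. There 10 of the 13 lymphocyte attractants were positive, beside 52.6% of the 8338 genes with at least 20 CPM. The inhibitory ligand gene Cd274, which encodes PD-L1, was at 6.28 CPM in yfp_7160c2 and 18.3 CPM in yfp_7160c5 in tumour 2, and at 20.6 CPM in yfp_7160c2 and 18.8 CPM in yfp_7160c5 in tumour 1. Arg1, an arginine-consuming enzyme of myeloid cells, was at 22.6 CPM in yfp_7160c2 against 195 CPM in yfp_7160c5 in tumour 2, and at 347 CPM in yfp_7160c2 against 342 CPM in yfp_7160c5 in tumour 1. The inhibitory list had a median of -0.59 in tumour 2 and 0.10 in tumour 1. Of its 16 genes, 7 were past a log2 difference of 1 downward and 0 upward in tumour 2, where 11.6% and 5.78% of all genes tested were. Its lower members in tumour 2, such as Arg1, Entpd1 and Cd86, are also made by myeloid cells, and the macrophage sums above stood beside them.

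Genes that let T cells see a tumour cell differed little between the clones. In tumour 2, H2-K1 was at 928 CPM in yfp_7160c2 and 920 CPM in yfp_7160c5, and B2m at 613 CPM in yfp_7160c2 and 722 CPM in yfp_7160c5. The 14 class I presentation genes had medians of 0.05 in tumour 2 and 0.09 in tumour 1, and 0 were past a log2 difference of 1. Over all genes tested, 5.78% were past it upward and 11.6% downward in tumour 2, and 5.17% and 5.62% in tumour 1. With 14 genes, a count of 0 is not far from these shares. The interferon gamma list had medians of 0.18 and 0.19, and the type I interferon list 0.25 and 0.24, in tumours 2 and 1. In tumour 1, 12 of the 16 type I genes were positive, beside 52.6% of the 8338 genes with at least 20 CPM. MAPK output, Wnt targets and proliferation had medians of 0.11, 0.002 and 0.34 in tumour 2, and 0.01, -0.13 and 0.02 in tumour 1. In tumour 2 the growth regulator Myc was at 125 CPM in yfp_7160c2 and 86.0 CPM in yfp_7160c5. Of the 44 lists with at least 3 genes tested, 9 had a median more than 0.5 from that of all genes in tumour 2, 7 lower and 2 higher, and 1 did in tumour 1.

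**Figure D4:**
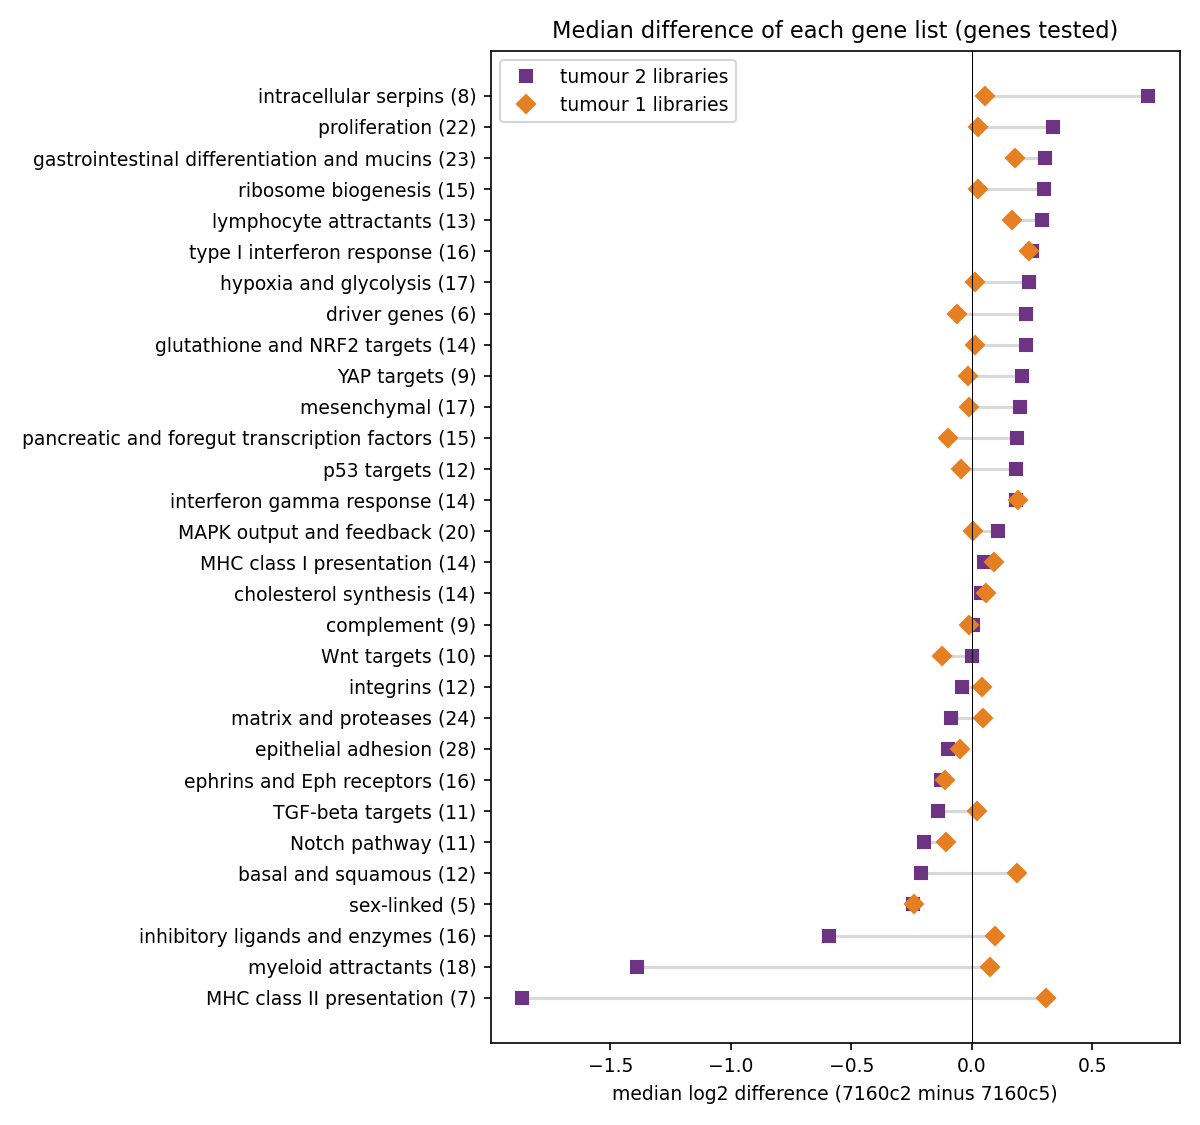
Median log2 difference of yfp_7160c2 minus yfp_7160c5 for each gene list (y axis, with the number of genes tested) in tumour 2 (squares) and tumour 1 (diamonds), cell type marker lists left out. Squares spread from -1.87 for MHC class II to 0.73 for intracellular serpins, while diamonds stay within -0.24 and 0.31.

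The tumour 2 difference was also set against the T cell high minus T cell low differences of the sister pairs yfp_6499c4 and yfp_6499c3, and yfp_6556c4 and yfp_6556c3, in the same heart-free libraries. edgeR called 0 of 18614 genes (725 higher and 580 lower at an unadjusted p under 0.05), and DESeq2 called 92 higher and 98 lower. The median difference of the genes of each of 20 chromosomes lay within 0.052 of the median of all genes in tumour 2 and within 0.032 in tumour 1.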

How the data were processed

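Per the labels, RNA of sorted tumour cells was sequenced after a column extraction and an NEB library kit. The authors deposited a table of raw counts for 39 libraries; STAR, featureCounts and the mm10 build are named in the submitters' processing notes. Versions, annotation and strand setting: not given in the sources used here, so antisense and overlapping genes cannot be told apart.

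Where a symbol was repeated (214 rows), its largest row was taken. Low genes were removed by filterByExpr, and the rest were TMM-scaled and tested with edgeR 4.0.16 (R 4.3.3) and Benjamini-Hochberg adjustment. The 4-library fit compared the clones. Tumour 2 and tumour 1 were compared in fits of heart-free (heart genes under 10 CPM) and heart-bearing libraries with 1 coefficient a clone, with 3 and 1 residual degrees of freedom. Standard errors are the log2 difference over the square root of F. DESeq2 1.42.0 and limma 3.58.1 were alternatives. Steps were tested on simulated data. Some genes are not reported here.

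Named genes were the 5 with the smallest p in each direction where none passed, at 20 CPM or more, passing over Gm, Rik and similar symbols, plus list members. Genes past the fold rule were named after their values were seen. Members and lists were chosen with earlier results of these data known. Positions are from GENCODE M21, promoters from RefSeq, both on GRCm38. Totals of the 4 libraries ran from 31580159 to 54727164 counts.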

Additional observations from a re-analysis of the deposited data

How the results depend on the processing

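The comparison of the 4 libraries gave 0 calls under DESeq2 size factors, without the expression filter, and under DESeq2 and limma-voom. That fit had 2 residual degrees of freedom, and its spread within a clone held the difference between a heart-bearing and a heart-free library. These counts of 0 therefore show little about how the clones differ. Leaving out each replicate in turn left a clone with 1 library, so those fits add nothing to this. With the tumour number as a replicate block it also gave 0 in each direction, with 364 genes at an unadjusted p under 0.05 against 65 without it; deviations of same-numbered libraries correlated at 0.827 over 11866 genes, but there are only 2 pairs, so the numbers are not taken to pair the samples, and the block changed no call. In tumour 2, DESeq2 called 19 higher and 39 lower, and edgeR called 2 lower without clone yfp_2838c3. Against the other sister pairs, edgeR called 2 higher and 2 lower without the filter and 2 and 3 against yfp_6499c4 minus yfp_6499c3 alone, and DESeq2 92 and 98. The fold rule was chosen after seeing the data, and so were its alternatives. Genes past the tumour 2 difference were 63 higher and 96 lower at a minimum of 50 CPM, 457 lower at 10 CPM, and 17 higher and 148 lower at a log2 difference of 2. Genes past both differences were 16 higher and 2 lower at 50 CPM, 28 lower at 10 CPM, and 9 higher and 4 lower at a log2 difference of 2, where the share with the same sign in tumour 1 was 100% of the higher and 30.4% of the lower genes. The causes were not tested. Each tumour pair has 1 library a clone, which limits what could be called.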
